A study of Rattus norvegicus with 320 samples.

Results

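The testis and the adrenal gland are the steroid-making organs of the male rat, and they were compared here at 2 weeks of age, before spermatogenesis has run its first full round. The comparison rests on 8 of the 320 libraries of a rat body map of small RNAs: 4 testis libraries and 4 adrenal libraries, taken as every library that the labels give as testis or adrenal gland of a male aged 2 weeks. All were from untreated rats of the strain given as Fisher 344, with 1 library for each animal and organ. By the study's methods 10 organs were taken from each rat, so both groups came from the same 4 rats, but the labels do not say which libraries share a rat and the tests here treat the 8 libraries as independent. No engineered allele is given for any animal. Whole organs were ground, so that cortex and medulla of the adrenal gland, and germ, Sertoli, Leydig and peritubular cells of the testis, entered the same extract. In such bulk samples, fewer cells of a type and less RNA per cell cannot be told apart. The question was which miRNAs set these organs apart, which they share, and how far the week 2 difference holds at later ages and against the other organs.

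miRNAs are short RNAs cut by Drosha and Dicer from hairpin transcripts. Each hairpin has a 5p and a 3p arm, and the arm that is loaded into Argonaute guides it to messenger RNAs that pair with the seed, bases 2 to 8 of the mature miRNA. miRNAs with the same seed share most of their targets, and miRNAs that lie close together in the genome are often cut from a common transcript, so that they tend to be made together. In the testis of a rat at this age, Sertoli cells still divide and germ cells are entering meiosis. In the adrenal gland the cortex makes corticosteroids, and the medulla holds chromaffin cells, which derive from the neural crest and secrete catecholamines.

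Sequences are given first for the miRNAs on which the results turn, in lower case with the seed in capitals, as the deposited table lists them. The sequences of 551 of the 616 miRNAs in the table were also found by name in RefSeq, whose positions on the GRCr8 build are used throughout. The testis set holds the gonadal miR-202 and miRNAs of the X chromosome that were nearly absent from the adrenal gland.

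miR-202-5p: uUCCUAUGcauauacuucu
miR-3585-5p: uUCACAAGaaggugucuuucau
miR-201-5p: cACUCAGUaaggcauuguuc
miR-547-3p: aUUGGUACuucuuuaagugaga
miR-743a-3p: gAAAGACGccaaacuggguaga
miR-743b-3p: gAAAGACAccauacugaauaga
miR-871-5p: uAUUCAGAuuggugccggucacau
miR-463-5p: uACCUAAUuuguuguccauca

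The adrenal set holds the miRNAs that were abundant in the adrenal gland and far lower in the testis.

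miR-375-3p: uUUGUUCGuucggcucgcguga
miR-351-5p: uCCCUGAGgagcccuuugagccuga
miR-127-3p: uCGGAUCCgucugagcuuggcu
miR-431: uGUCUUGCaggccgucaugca
miR-341: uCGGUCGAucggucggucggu

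The third set adds members of 2 seed groups. miR-351-5p above and miR-125a-5p have the same seed, and miR-34b-5p and miR-449a-5p have another seed in common.

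miR-125a-5p: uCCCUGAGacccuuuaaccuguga
miR-34b-5p: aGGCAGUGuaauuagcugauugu
miR-449a-5p: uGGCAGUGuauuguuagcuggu

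The libraries held 2385491 to 3622813 miRNA counts in testis and 2833871 to 4104223 in adrenal gland. Levels below are counts scaled to library size and TMM factor over these 8 libraries, called normalized CPM, in which 3 counts correspond to 0.606 to 1.21 normalized CPM in a library. Pearson correlations over miRNAs were taken on log2 normalized CPM with 1 added. They were 0.990 to 0.994 between testis libraries, 0.986 to 0.991 between adrenal libraries and 0.786 to 0.813 between libraries of different organs. The TMM factors were 1.10 to 1.37 in testis and 0.652 to 0.916 in adrenal gland, so the scaling itself differed between the organs. The libraries of the organs shared a sequencing lane only in lane 6, and the RNA integrity numbers in the sample sheet were higher in every testis than in every adrenal gland. That lane held testis replicate 4 and adrenal replicate 1, a single pair, which allows no test. In this pair, which is part of the comparison below, the log2 difference was 7.01 for miR-202-5p, -3.28 for miR-351-5p and -7.13 for miR-375-3p. The part of RNA integrity was not tested.

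The adrenal libraries were made up of fewer miRNAs. The 10 most abundant miRNAs took 69.97 to 79.6% of counts in the adrenal gland and 58.3 to 67.99% in testis, with no overlap (means 74.4 ± 3.99% and 63.6 ± 4.02%, SD, n = 4 each; two-sided exact permutation p 0.0286, the smallest that 4 against 4 allows). To reach 90% of the counts took 22 to 28 miRNAs in the adrenal gland and 36 to 43 in testis (exact permutation p 0.0286). More than 3 counts were seen for 437 to 456 miRNAs in adrenal libraries and for 481 to 520 in testis libraries (exact permutation p 0.0286). The share of the single most abundant miRNA, miR-10b-5p, was 31.4 ± 3.93% in the adrenal gland and 24.1 ± 4.78% in testis, and these groups overlapped (exact permutation p 0.0571).

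Of the 616 miRNAs in the table, 450 passed the filter on low counts and were tested with the quasi-likelihood test of edgeR. At an adjusted p under 0.05 and at least 2-fold, 143 were higher in testis (31.8% of those tested) and 137 were lower (30.4%), 62.2% in all. The libraries of the organs did not overlap for 322 miRNAs (71.6%). A group of miRNAs therefore stands out only where its share is far from these, and the median log2 fold change over all tested miRNAs was 0.07. With library size alone in place of TMM that median was 0.65, and the calls were 186 higher and 118 lower. The plot of mean levels shows these groups against all tested miRNAs.

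**Figure D1:**
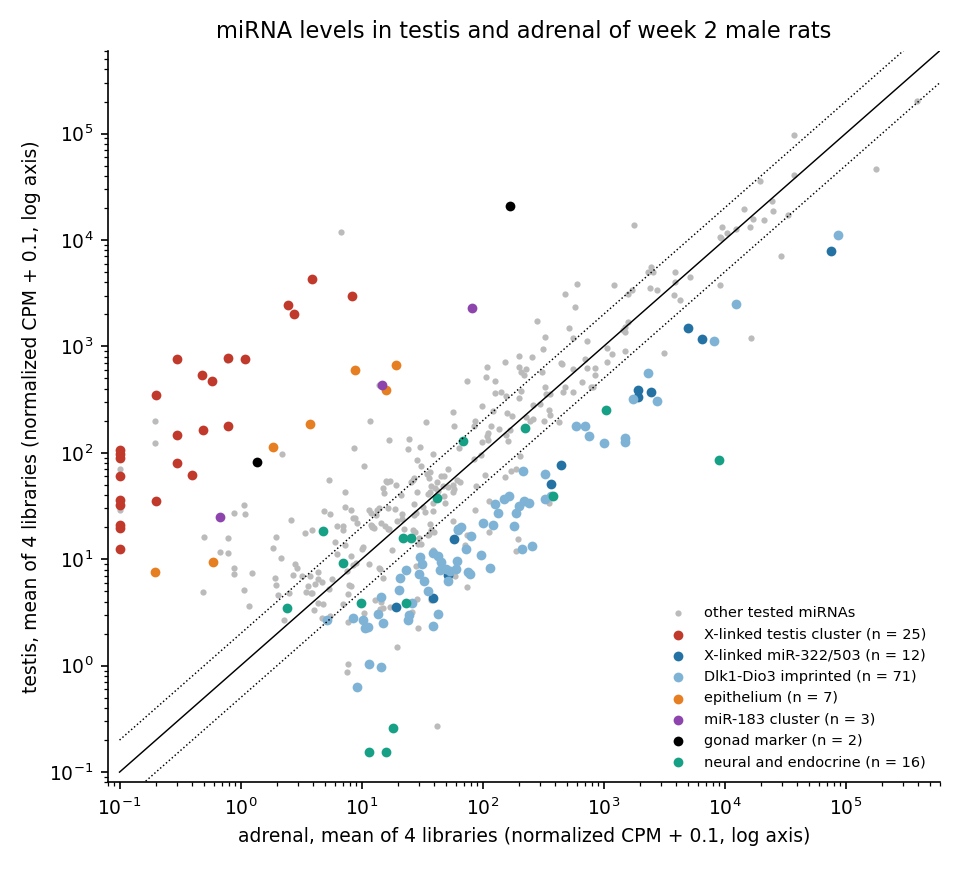
Mean normalized CPM of each tested miRNA in 4 adrenal libraries (horizontal, log axis) and 4 testis libraries (vertical, log axis), with 0.1 added; the solid line marks equal levels and the dotted lines 2-fold. The X-linked testis cluster lies at the upper left, with no member at 100 normalized CPM in the adrenal gland, and the Dlk1-Dio3 and miR-322 and miR-503 groups lie below the 2-fold line except miR-370-5p of Dlk1-Dio3.

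The labels were first checked against a gonadal marker. miR-202-5p, a miRNA known from somatic cells of the gonads, was at 17103, 22259, 19662 and 25117 normalized CPM in the testis libraries and at 194, 152.7, 140.8 and 192 in the adrenal libraries. Every testis library was far above every adrenal library, yet the adrenal level was well above the level of 3 counts. The log2 fold change was 6.95 (SE 0.22, edgeR adjusted p 1.47e-10). The other arm, miR-202-3p, was at 81.3 ± 10.9 normalized CPM in testis and 1.26 ± 0.675 in the adrenal gland (log2 fold change 5.96).

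miR-202-5p was also the miRNA that the testis and the adrenal gland had in common against the rest of the male body. In a fit of 40 male week 2 libraries of 10 organs, it was at least 2-fold above each of the 8 other organs in both testis and adrenal gland, and it was the single miRNA called so (0.180% of 555 tested). On the scale of that fit it was at 20564 normalized CPM in testis and 147.7 in the adrenal gland, against 48.4 in muscle, 21.4 in heart and 2.87 or less in brain, kidney, lung, liver, spleen and thymus. The smallest of these margins was that of adrenal gland over muscle (log2 fold change 1.61, edgeR adjusted p 0.000455), and with a 4-fold rule no miRNA was called in both organs. On the scale of all 80 week 2 libraries, adrenal glands of females held 96.0 to 127.9 normalized CPM of miR-202-5p and those of males 152.9 to 195. The source of the adrenal counts was not tested. The uterus was the other organ with a mean above the male adrenal gland outside the testis, but its 4 libraries spread from 2.55 to 673.

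The miRNAs that were highest in testis relative to the adrenal gland came almost entirely from the X chromosome. The X-linked testis cluster is a group of fast-evolving miRNA genes near Fmr1, known from germ and Sertoli cells. All 25 of its tested mature miRNAs were higher in testis with no overlap, against 31.8% of all tested miRNAs. Their median log2 fold change was 9.72, and it was 8.49 when the 9 members with no count in any adrenal library were set to their lower bound. Summed, they made up 13632 to 20182 normalized CPM in testis and 8.97 to 42.3 in the adrenal gland. The 9 members without adrenal counts, and 6 more with at most 3, passed the filter on low counts through the testis libraries alone. For them a call of higher was close to fixed by the filter, so the count of 25 describes the group and is no test.

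The members lie in runs on the minus strand, which also hold miRNAs outside the group, such as miR-3585-3p. A run of 4 hairpins from miR-743a to miR-883 spans chrX:150444098-150452029, and 8 of its 8 mature miRNAs were higher in testis. A run of 9 hairpins from miR-471 to miR-465 spans chrX:150462909-150488232, with 14 of 14 higher. A further run with miR-3585, miR-201 and miR-547 lies at chrX:151706741-151712151, with 5 of 5 higher.

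Among the members, miR-201-5p was the most abundant in testis, at 3510, 3590.2, 3743 and 6465 normalized CPM, against 2.24, 2.42, 5.18 and 5.37 in the adrenal libraries (log2 fold change 10.14, SE 0.38, edgeR adjusted p 5.37e-10). miR-743b-3p was at 2347, 2360.1, 2243 and 2953 in testis and 0.374, 2.02, 6.78 and 0.383 in the adrenal gland (log2 fold change 10.02, SE 0.55, or 11.35 without adrenal replicate 3). Both were far apart between organs in every library, and the testis levels of each were highest in replicate 4. miR-463-5p was likewise highest there, at 653, 613, 578 and 1278 in testis against 1.15 or less in any adrenal library (log2 fold change 10.08).

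Where the adrenal counts were too few for a fold change, bounds and intervals were used. miR-463-3p was at 90.1 to 119.9 normalized CPM in testis and had no count in any adrenal library, which made it at least 373-fold higher in testis (3 counts over the 4 adrenal libraries taken as the limit). miR-871-5p was at 648 to 974 in testis, and its 2 adrenal counts gave a ratio of 4002 with a 95% counting interval of 1108 to 33051. miR-743a-3p was at 308 to 388 in testis with 1 adrenal count. These intervals cover counting error only.

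miR-871-3p had the widest spread of any miRNA in testis at a mean of at least 100 normalized CPM. It was at 5717, 446, 429 and 1541 in the testis libraries and 0, 1.62, 8.37 and 0.767 in the adrenal libraries. The organs did not overlap (log2 fold change 9.56, SE 1.19, edgeR adjusted p 9.67e-06; 11.27 without adrenal replicate 3 and 8.04 without testis replicate 1), but the testis libraries differed among themselves by more than 10-fold, whereas its partner arm miR-871-5p varied by less than 2-fold.

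miR-3585-5p belongs to the same stretch of the X chromosome but to none of the groups used here, and it had the smallest adjusted p of the comparison. It was at 11585, 13630.1, 11352 and 11220.0 normalized CPM in testis and at 5.98, 6.46, 6.38 and 7.67 in the adrenal gland (log2 fold change 10.81, SE 0.21, edgeR adjusted p 1.52e-12). In both organs its libraries lay close together. miR-3585-3p (741 ± 142.8 against 0.680 ± 0.846 normalized CPM) and miR-547-3p (541 ± 95.99 against 0.381 ± 0.529) had log2 fold changes of 10.01 (SE 0.44) and 10.31 (SE 0.43). These rest on few adrenal counts, which were 0, 1, 1 and 5 for miR-3585-3p and 3, 1, 0 and 0 for miR-547-3p. Without adrenal replicate 4 the value of miR-3585-3p was 11.27, and without adrenal replicate 1 that of miR-547-3p was 11.64. A candidate miRNA that the study listed from chromosome X, chrX_48878, was at 122 to 268 in testis and had 1 count in the adrenal gland.

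miR-3585-5p also varied among the other male organs in a way that miR-743b-3p did not. On the scale of the 40 male week 2 libraries it was at 205 normalized CPM in liver, 186.9 in kidney, 147.8 in heart and 143 in lung, but at 5.78 in the adrenal gland and 5.38 in brain. miR-201-5p, its neighbour, was at 97.5 in kidney, 74.4 in heart, 70.9 in liver and 54.3 in lung, and at 3.31 in the adrenal gland. miR-743b-3p, from another run of the cluster, was at 7.79 or less in each of the 9 other organs. The adrenal gland was thus among the organs lowest in miR-3585-5p, with the brain.

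**Figure D2:**
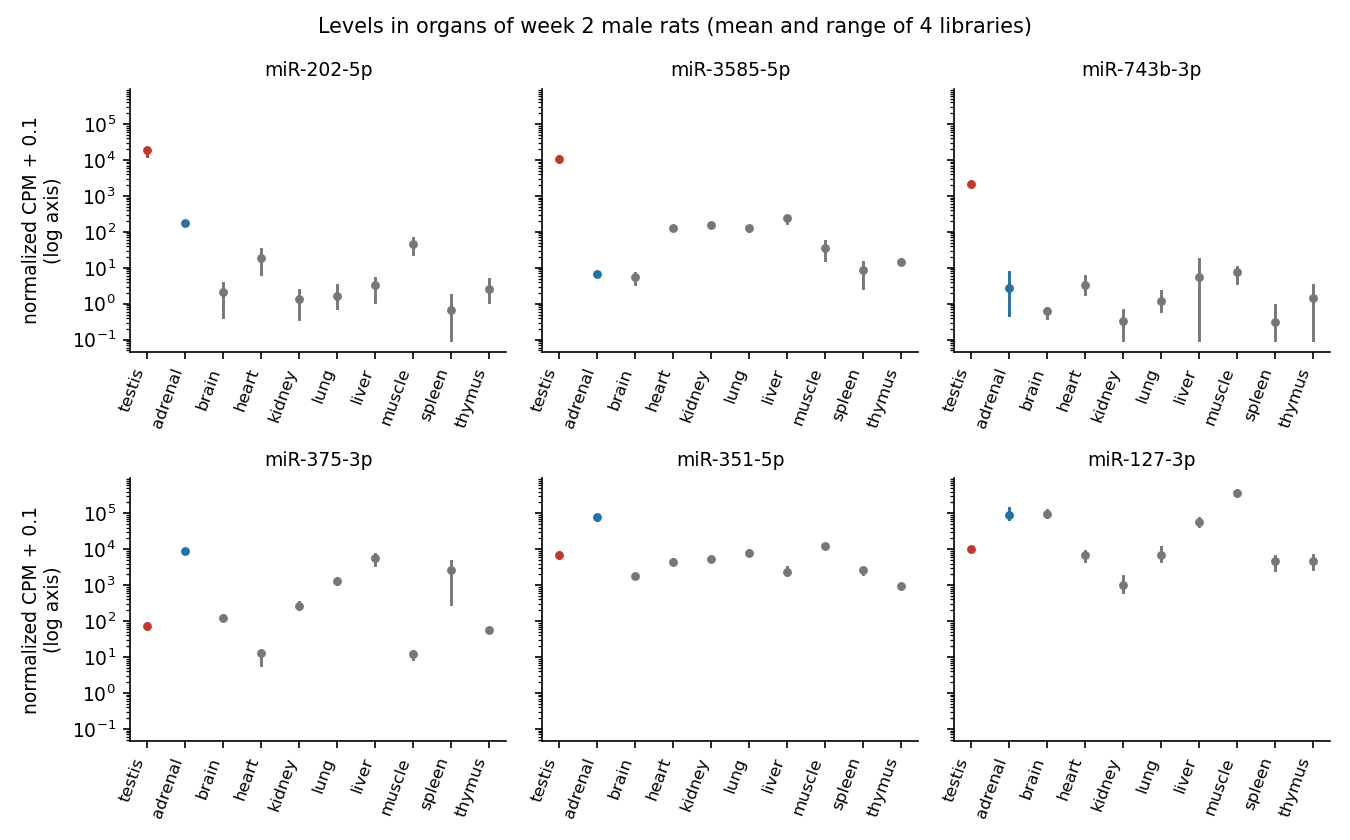
Mean (point) and range (line) of 4 libraries in each of 10 organs of week 2 males, in normalized CPM of 80 week 2 libraries plus 0.1 on a log axis. miR-202-5p was high in testis and next highest in the adrenal gland, miR-743b-3p was high in testis alone among these organs, and miR-351-5p was highest in the adrenal gland.

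In the same 40 libraries the testis was above all 9 other male organs for 40 miRNAs (7.21% of 555). All 25 members of the X-linked testis cluster were among them, and RefSeq placed 29 of the 40 on the X chromosome. The others included both arms of miR-202, miR-196c and miR-1839, as well as miR-32-5p. The adrenal gland was above all 9 others for 9 miRNAs (1.62%), of which 7 belonged to the X-linked group of miR-322 and miR-503. The remaining 2 were miR-184, known from the nervous system and the lens, and the candidate chr20_23611. The candidate was at 36.6 normalized CPM in the adrenal gland and at 0.174 or less in each other organ of this fit.

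On the X chromosome more miRNAs were higher in testis than lower, and the listed testis cluster made up most of the higher ones. Of 75 tested miRNAs that RefSeq placed on it, 35 were higher and 20 lower in testis (46.7% and 26.7%), against 100 and 110 of 336 on other chromosomes (29.8% and 32.7%). The median log2 fold change was 0.80 on the X chromosome and 0.0059 on the others. Without the listed testis cluster, 12 were higher and 20 lower of 52 on the X chromosome, with a median of -0.38. These 52 still held miRNAs that lie in the runs above but are not listed, such as miR-3585-3p.

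A large part of the lower calls on the X chromosome was the group of miR-322 and miR-503, a cluster known from growing juvenile tissue whose members restrain cell-cycle genes. All 12 of its mature miRNAs were lower in testis with no overlap, against 30.4% of all tested, with a median log2 fold change of -2.55 and a range from -3.26 to -1.76. They lie in 1 run at chrX:137720952-137726219 on the minus strand. miR-351-5p, by far the most abundant, was at 7680, 7809, 6643 and 9279 normalized CPM in testis and 90416, 73283, 60648 and 76006 in the adrenal gland (log2 fold change -3.26, SE 0.18, edgeR adjusted p 1.06e-08). The lowest adrenal library was more than 6 times the highest testis library. miR-450a-5p was at 1185 ± 106.8 in testis and 6476 ± 1702 in the adrenal gland, and miR-322-5p at 1477 ± 116.6 and 5012 ± 749.

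The Dlk1-Dio3 group was the largest block of miRNAs on the adrenal side. It is an imprinted domain on rat chromosome 6 whose miRNAs are made from the maternal chromosome, and it is known from neural, muscle and endocrine tissue. Of its 71 tested mature miRNAs, 70 were lower in testis (69 without overlap) and none was higher, against 30.4% and 31.8% of all tested. The median log2 fold change was -2.55. The exception was miR-370-5p, with a log2 fold change of -0.96. With library size alone in place of TMM, 68 were lower. The domain holds 3 runs, all on the plus strand. Of the tested miRNAs, 17 of 17 were lower at chr6:134298094-134331404, 2 of 3 at chr6:134347871-134354559, from miR-341 to miR-370, and 49 of 49 at chr6:134543460-134579828.

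miR-127-3p, which lies within and opposite to the retrotransposon-derived gene Rtl1, carried most of the group's counts. It was at 11967, 10406, 10228 and 12179 normalized CPM in testis and 135054, 65858, 65260.3 and 78897 in the adrenal gland (log2 fold change -2.95, SE 0.25, edgeR adjusted p 2.78e-07). Adrenal replicate 1 stood well above the other adrenal libraries, and all of them were above the testis libraries. miR-411-5p was at 2488 ± 355 in testis and 12444 ± 807 in the adrenal gland, and miR-434-3p at 1128 ± 170.6 and 8116 ± 2332. The largest differences of the group at 100 normalized CPM or more were those of miR-433-3p (13.1 ± 2.97 against 256 ± 51.4, log2 fold change -4.29) and miR-667-3p (12.4 ± 1.76 against 210.3 ± 42.5, -4.08). miR-668, miR-431 and miR-341 followed, at -3.80, -3.58 and -3.45.

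**Figure D3:**
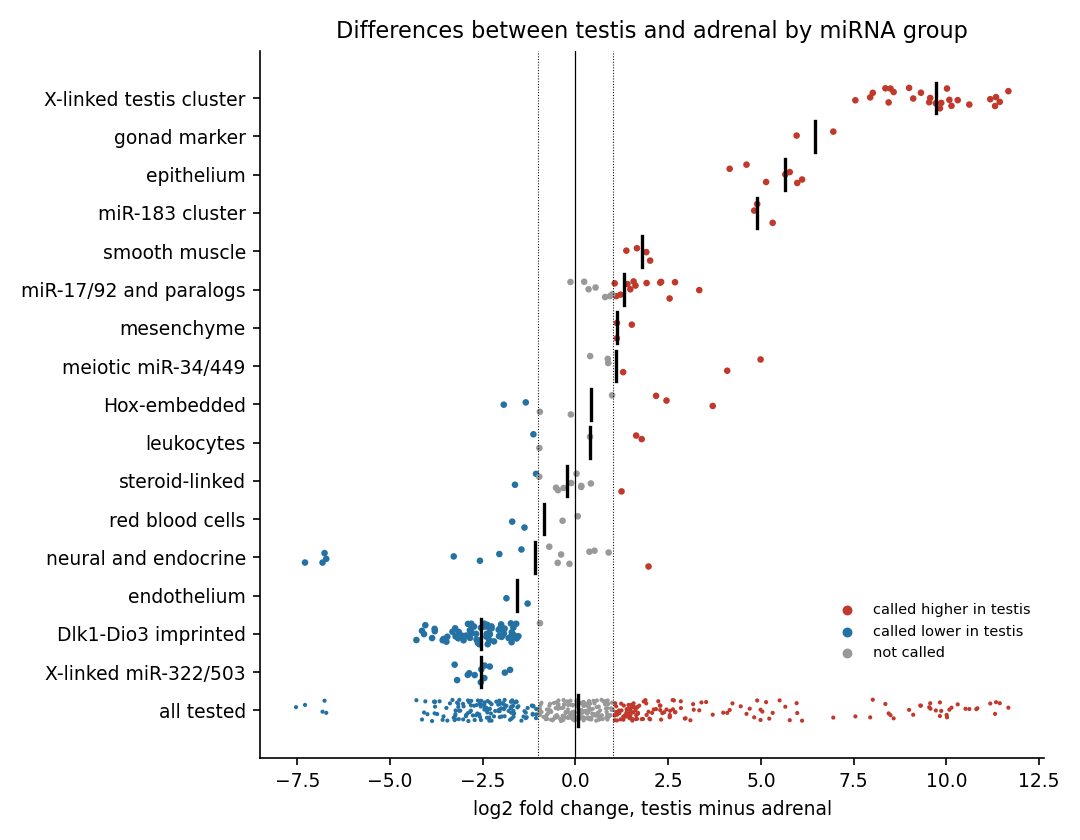
Log2 fold change (testis minus adrenal gland) of each tested miRNA by group, with the group's median as a bar, colours for the call, and dotted lines at 2-fold. All 25 of the X-linked testis cluster, all 7 of the epithelial group and all 3 of the miR-183 cluster lie to the right, and all 12 of the miR-322 and miR-503 group and 70 of 71 of the Dlk1-Dio3 group to the left, whereas the medians of the leukocyte and steroid-linked groups lie at 0.39 and -0.22.

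The neural and endocrine group was divided. Of 16 tested members, 8 were lower in testis and 1 was higher, against 30.4% and 31.8% of all tested. Among the 16, 3 had only 1 to 3 counts over the 4 libraries of 1 organ. They passed the filter on low counts through the other organ alone. For them a call was close to fixed by the filter, so the count describes the group and is no test. miR-375-3p, known from pancreatic islets and other neuroendocrine cells, had the largest difference of all miRNAs at 100 normalized CPM or more that were lower in testis. It was at 110.2, 90.5, 68.8 and 70.3 normalized CPM in testis and 9888, 8482, 8714 and 8677 in the adrenal gland (log2 fold change -6.72, SE 0.21, edgeR adjusted p 1.47e-10). The highest testis library was more than 70 times below the lowest adrenal library.

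miR-7a-5p, also a neuroendocrine miRNA, was at 39.0 ± 7.14 in testis and 379 ± 96.1 in the adrenal gland (log2 fold change -3.28), and miR-128-3p, best known from neurons, at 254 ± 127.3 and 1055 ± 347 (-2.05). miR-137-3p and miR-7b, at 11.4 and 15.8 normalized CPM in the adrenal gland, had 1 count each in the 4 testis libraries, which gave ratios of 180 (95% counting interval 31.8 to 7186) and 251 (44.5 to 9987). The miRNA of the group that was higher in testis was miR-7a-1-3p (18.2 ± 3.81 against 4.66 ± 1.58). miR-9a-5p, another neuronal miRNA, did not reach 2-fold, at 129.1 ± 34.6 in testis and 69.4 ± 11.6 in the adrenal gland. miR-124-3p, the defining miRNA of neurons, was low in both organs, at 3.76 ± 1.99 and 9.83 ± 6.30.

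Several miRNAs outside the named groups were also far lower in testis. miR-378a-3p, which is encoded in the metabolic regulator gene Ppargc1b, was at 1421, 1201, 1141 and 1066 normalized CPM in testis and 9715, 18832, 24968 and 13147 in the adrenal gland (log2 fold change -3.79, SE 0.28, edgeR adjusted p 9.06e-08). The adrenal libraries spread more than 2-fold, but the lowest was above every testis library. miR-139-5p was at 15.5 ± 2.66 and 197.05 ± 15.6 (-3.66), miR-203b-3p at 11.7 ± 1.88 and 187.2 ± 74.0 (-3.99), and miR-365-3p at 33.9 ± 4.36 and 355 ± 111.8 (-3.38). The last of these was highest in adrenal replicate 1, at 521 against 287 to 324 in the others. miR-148a-3p, abundant in both organs, was at 7111 ± 666 normalized CPM in testis and 29269.9 ± 8109 in the adrenal gland (log2 fold change -2.04). The candidate chr20_23611 was at 51.2, 42.4, 28.3 and 46.4 in the adrenal gland, and its 3 counts in the testis libraries gave a ratio of 223 (95% counting interval 75.8 to 1086).

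Adrenal glands of week 2 females held these miRNAs as well. On the scale of the 80 week 2 libraries, miR-375-3p was at 4771 to 8335 normalized CPM in 4 female adrenal glands and 8380.3 to 9945 in the male ones, and miR-351-5p at 53504 to 79993 and 65884 to 90938. The candidate chr20_23611 was at 24.5 to 44.8 and 30.8 to 51.5. On the scale of the 40 male libraries, miR-375-3p was also high in liver (4959), spleen (2576) and lung (1481) beside the adrenal gland (7817), and miR-127-3p was higher in muscle (373669) and brain (96048) than in the adrenal gland (74880.3). miR-351-5p was highest in the adrenal gland (65448.5), followed by muscle (12944) and lung (8925), with testis at 7686.

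Epithelial miRNAs were higher in testis. The miR-200 group, which holds cells in an epithelial state, had 7 of 7 tested miRNAs higher, against 31.8% of all tested. Of these, 1 had at most 3 counts over the 4 adrenal libraries. It passed the filter on low counts through the testis libraries alone, so its call was close to fixed. The median log2 fold change of the group was 5.66. Its summed level was 1417 to 2842 normalized CPM in testis and 39.9 to 72.1 in the adrenal gland. miR-141-3p was at 606 ± 188.0 in testis and 8.71 ± 2.21 in the adrenal gland (log2 fold change 6.11, edgeR adjusted p 4.06e-09). miR-200b-3p was at 674 ± 326 and 19.1 ± 6.27 (5.14).

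The miR-183 cluster, known from sensory cells and from stem and germ cells, behaved alike at this age, with 3 of 3 higher (31.8% of all tested). miR-182 was at 3258, 2163, 2097 and 1734 normalized CPM in testis and 93.1, 73.9, 89.7 and 70.9 in the adrenal gland (log2 fold change 4.82, SE 0.23, edgeR adjusted p 3.09e-09). Testis replicate 1 was the highest, and the lowest testis library was still above every adrenal library. miR-183-5p was at 437 ± 147.0 and 14.5 ± 7.90, and miR-96-5p at 24.7 ± 10.8 and 0.571 ± 0.644. At this adrenal level miR-96-5p passed the filter on low counts through the testis libraries alone. Its call was close to fixed, so the count of 3 describes the cluster and is no test.

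Beyond these groups, miR-31a-5p, known from epithelial and mesenchymal cells, was at 362, 431, 413 and 546 normalized CPM in testis and 8.23, 10.9, 15.2 and 20.7 in the adrenal gland (log2 fold change 4.99, SE 0.28, edgeR adjusted p 1.06e-08). miR-204-5p, which lies in an intron of the ion channel gene Trpm3, was at 3108 ± 403 and 480.4 ± 154.7 (2.69). Neither overlapped between the organs.

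The miR-17/92 group and its paralogs, known from dividing cells, had 13 of 20 tested miRNAs higher in testis and none lower. The shares of all tested were 31.8% and 30.4%. The median log2 fold change of the group was 1.31. miR-93-5p was at 3858 ± 339 in testis and 600.2 ± 74.0 in the adrenal gland (2.68), and miR-106b-5p at 516 ± 31.5 and 105.9 ± 14.7 (2.29). miR-92a-3p, the most abundant of the group, did not differ beyond its spread (15645 ± 3820.0 and 17176 ± 2408, log2 fold change -0.13, adjusted p 0.521 by edgeR). Thus the summed levels of the group overlapped, at 21940 to 31538 in testis and 17525 to 23126 in the adrenal gland.

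The group of miR-34 and miR-449, known to rise with spermatocytes, was low at week 2. Of 6 tested, 3 were higher in testis, against 31.8% of all tested. With library size alone 6 of 6 were higher, against 186 of all 450. miR-449a-5p was at 184 to 212 normalized CPM in testis and 7.48 to 21.1 in the adrenal gland (log2 fold change 4.09, edgeR adjusted p 8.34e-08). miR-34b-5p was at 14.4 ± 2.61 and 5.95 ± 0.674 (1.29). miR-34c-5p was at 383 ± 27.98 and 209.5 ± 51.6, which did not reach 2-fold (0.87). Of 6 miRNAs of the early embryonic clusters of miR-290 and miR-302 in the table, miR-293-5p alone passed the filter and was higher in testis (18.6 ± 1.399 against 3.81 ± 0.660).

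The Hox-embedded miRNAs, which lie within the Hox clusters that pattern the body axis, split by member. miR-10b-5p, the most abundant miRNA of both organs, was at 219349, 272626, 177909 and 133536 normalized CPM in testis and 527559, 368802, 383527 and 282073 in the adrenal gland. Testis was below the adrenal gland in every library, and the log2 fold change of -0.96 (SE 0.25) fell just short of 2-fold. It was called lower when testis replicate 1, 2 or 3 or adrenal replicate 4 was left out (-1.05 to -1.26). miR-10a-5p, which differs from it in few bases, was at 46569.5 ± 14495 and 177903 ± 45778 (log2 fold change -1.93, edgeR adjusted p 2.18e-05) and was called lower. How reads that match both were counted is not given in the sources used here. In contrast, miR-196a-5p (111.0 ± 47.0 against 8.51 ± 3.69, log2 fold change 3.70) and miR-196c-5p (135.7 ± 14.1 against 24.7 ± 5.69, 2.45) were higher in testis. The median over all 8 tested was 0.43, or 1.01 with library size alone and -0.21 at a mean count of at least 100.

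The steroid-linked group, which holds miRNAs tied to steroid synthesis or to the hormones that drive it, showed little difference between these steroid-making organs at week 2. Of 12 tested, 1 was higher and 2 were lower in testis, against 31.8% and 30.4% of all tested. Its median log2 fold change was -0.22, and it was 0.35 with library size alone. miR-21-5p was at 11678 ± 1226 normalized CPM in testis and 10491 ± 836 in the adrenal gland, and miR-125a-5p at 12578 ± 4890 and 12336 ± 3477. The members called were miR-24-1-5p (higher), miR-132-3p and miR-212-5p (lower), each below 30 normalized CPM in both organs.

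Other abundant miRNAs were also close to equal. The smallest differences at a mean of at least 1000 normalized CPM in both organs were those of miR-30b-5p (log2 fold change -0.02, SE 0.13), miR-125a-5p (0.03, SE 0.28), miR-101a-3p (0.03, SE 0.15), miR-26b-5p (0.05, SE 0.13) and miR-30a-5p (-0.07, SE 0.15). miR-30a-5p was at 22733, 27860.1, 23131 and 20089 in testis and 27492, 25291, 24712 and 20998 in the adrenal gland, with overlapping libraries. miR-26a-5p, among the 5 most abundant in testis, was at 40659 ± 3018 and 37448 ± 6109. These miRNAs are widely expressed, and none of them was called. The other miRNAs among the 5 most abundant of an organ were miR-10b-5p, miR-10a-5p and miR-143-3p in both, miR-181a-5p in testis, and miR-127-3p and miR-351-5p in the adrenal gland. miR-181a-5p was at 35491 ± 6481 in testis and 19536 ± 4622 in the adrenal gland (log2 fold change 0.86, not called).

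**Figure D4:**
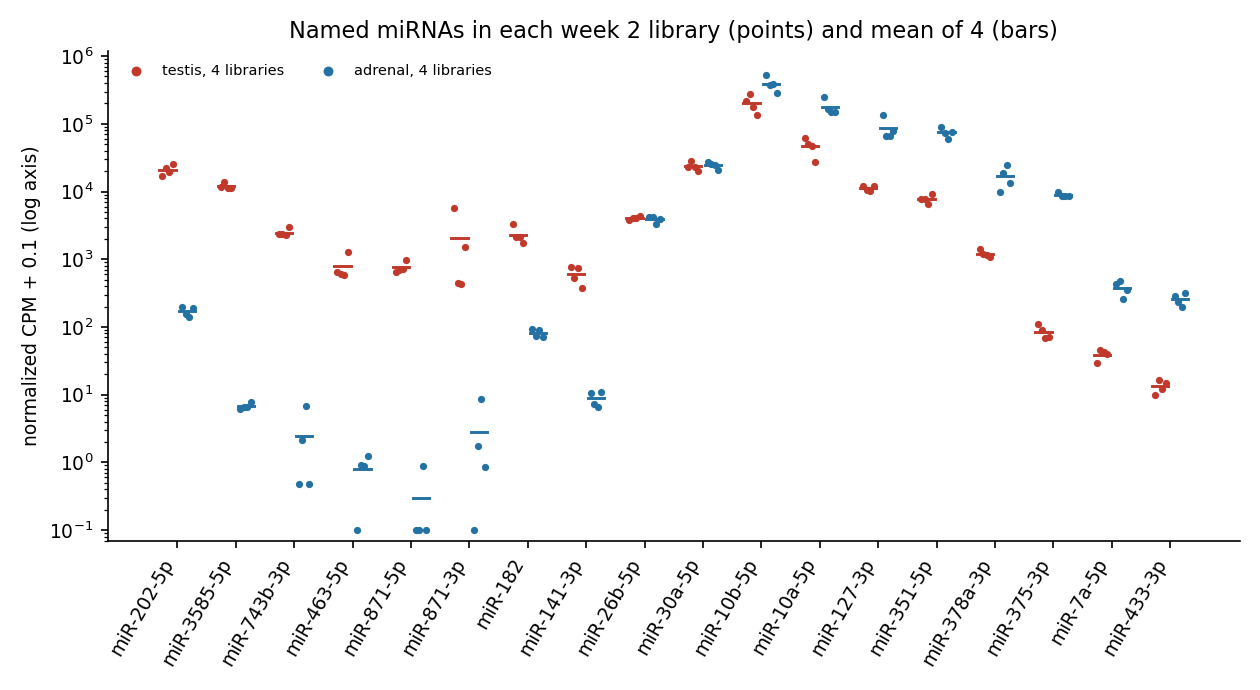
Normalized CPM plus 0.1 (log axis) of named miRNAs in each of 4 testis and 4 adrenal libraries of week 2 males, with bars at the means. The points of the organs are apart for every miRNA shown except miR-26b-5p and miR-30a-5p, and miR-871-3p shows the widest spread among the testis libraries.

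Markers of supporting cells differed as well, and their counts stand beside 31.8% higher and 30.4% lower of all tested miRNAs. The smooth muscle and fibroblast miRNAs miR-143 and miR-145 were higher in testis for 4 of 4 mature miRNAs. miR-143-3p was at 97240.0 ± 11082 normalized CPM in testis and 37575 ± 3904 in the adrenal gland (log2 fold change 1.37, edgeR adjusted p 4.48e-06). The connective tissue miRNAs miR-199a and miR-214 were higher for 3 of 3, with a median log2 fold change of 1.12, close to the 2-fold threshold. The count was 1 of 3 without testis replicate 1 or replicate 3 and 2 of 3 without replicate 2. The endothelial miR-126a was lower in testis for 2 of 2, and miR-126a-3p was at 866 ± 183.7 and 3147 ± 332 (-1.86).

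Blood markers were present in both organs. With so few members, neither of the groups below stands out from the 31.8% higher and 30.4% lower of all tested miRNAs. The red cell group had 2 of 4 lower in testis, and its summed level overlapped (2429 to 3591 normalized CPM in testis, 2973 to 5583 in the adrenal gland). The leukocyte group had 2 of 5 higher, both arms of miR-142, and 1 lower, miR-150-5p. miR-223-3p (log2 fold change -0.97) was called lower as well when any testis library or adrenal replicate 1 or 2 was left out. Its summed level was 967 to 1172 in testis and 640.4 to 885 in the adrenal gland. The part of the makeup of cell types in the differences above was not tested.

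Markers of neighbouring organs varied between libraries of 1 organ. The striated muscle group summed to 243 to 310.1 normalized CPM in testis and 83.7 to 406 in the adrenal gland, where replicate 2 held 373 of miR-133a-3p and the others 67.8 to 110.3. The kidney and gut group summed to 1395 to 2162 and 832 to 2991, and none of its 3 tested miRNAs was called. The liver miRNA miR-122-5p was called lower in testis (log2 fold change -1.15, SE 0.43, edgeR adjusted p 0.0275), but the organs overlapped, since adrenal replicates 3 and 4 held 321 and 311 and the other adrenal libraries 91.98 and 99.4. It was not called without adrenal replicate 3, adrenal replicate 4 or testis replicate 3 (-0.86, -0.89 and -1.22). Pancreatic miRNAs were at or near 0, with a summed level of at most 1.62 in any library.

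The remaining groups were small in this table. Of the let-7 family only the arms of miR-98 were listed: miR-98-5p was at 10551 ± 845 and 9419 ± 1032 and was not called, and miR-98-3p was lower in testis. The miRNAs hosted by H19, Igf2 and Mest had 0 of 3 called, against 62.2% of all tested, with a median log2 fold change of -0.77.

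Summing miRNAs by seed showed which targeting classes differed, since near-identical members can take each other's reads. Of 346 seeds tested, 115 were higher in testis (33.2%) and 117 lower (33.8%). The seed CCCUGAG, that of miR-125a-5p, miR-125b-5p and miR-351-5p, was the most abundant of those called that had more than 1 member. It was at 27173 normalized CPM in testis and 91129.8 in the adrenal gland on the scale of the seed sums (log2 fold change -1.75, edgeR adjusted p 2.00e-05). miR-351-5p supplied most of the adrenal sum, whereas the means of miR-125a-5p were close, as given above. miR-125b-5p went the other way, at 7884, 3451, 3819 and 5050 normalized CPM of the single miRNAs in testis and 3191, 2583, 1667 and 2838 in the adrenal gland, with no overlap (log2 fold change 0.98, SE 0.27, edgeR adjusted p 0.00562), and it did not reach 2-fold.

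The miR-181 seed ACAUUCA went the other way, with 58410 in testis and 22779 in the adrenal gland (log2 fold change 1.36), and miR-181c-5p was its member with the larger difference (13763 against 1784 normalized CPM of the single miRNAs, 2.95). The seed AAAGUGC of miR-17, miR-20, miR-93 and miR-106b was at 5692 and 1061 (2.42). The seed CAGUGCA of miR-148 and miR-152 was lower in testis, at 8786 and 30729.6 (-1.81). Some abundant seeds were close to equal: UCAAGUA of miR-26 (0.20), GUAAACA of miR-30 (0.07) and AGCAGCA of miR-16, miR-15b, miR-195, miR-322 and miR-497 (0.19). The last sum hid opposite differences, because miR-322-5p was lower in testis and miR-195-5p (719 ± 13.7 against 153 ± 12.9 normalized CPM) and miR-497-5p (469 against 74.4) were higher.

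The arms of a hairpin were compared as log2 of 5p over 3p counts, which does not depend on library scaling. Of 44 hairpins with both arms at a mean of 50 counts or more in each organ, 0 passed an adjusted p of 0.05, and the smallest adjusted value was 0.0698. At an unadjusted exact permutation p under 0.05 there were 18, all at 0.0286, the smallest p possible. The largest difference was that of miR-409a (-1.75), but its 5p share was 52.7, 3.22, 1.11 and 9.87% in the testis libraries and 42.0, 22.5, 10.02 and 22.2% in the adrenal libraries, so that the organs overlapped (exact permutation p 0.314). miR-148a had a 5p share of 4.65 to 8.89% in testis and 2.14 to 4.04% in the adrenal gland (difference 1.34 on the log2 scale), and miR-378a of 1.23 to 1.81% and 0.534 to 0.983% (1.08). For these hairpins the share of the minor arm did not overlap between the organs. By the mean ratio of each organ, the major arm itself differed between the organs for 2 hairpins, miR-345 and miR-369, neither of them called. These were chosen after their values were seen. For miR-345 the 5p share was 54.98 to 63.5% in testis and 42.4 to 49.6% in the adrenal gland. For miR-369 it was 54.5 to 65.8% in testis and 39.9 to 51.1% in the adrenal gland, where replicate 2 had the same major arm as testis.

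At later ages many of these differences were of another size. In a fit of 32 libraries of male testis and adrenal gland at weeks 2, 6, 21 and 104, the difference between the organs departed from that at week 2 for 137 of 481 miRNAs at week 6 (28.5%), 210 at week 21 (43.7%) and 194 at week 104 (40.3%), by the interaction test of edgeR at an adjusted p under 0.05 and 2-fold. Levels in this and the next paragraphs are on the scale of that fit. Testis libraries held 734282 to 1413760 miRNA counts at weeks 6 and 21 and 4464215 to 7383298 at week 104, against 2966214 to 5997570 in adrenal libraries of these ages. All comparisons with week 2 share its 8 libraries.

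The difference of the group of miR-34 and miR-449 grew most. Its 6 tested members all had a higher organ difference at week 6 and at week 21 than at week 2, against 75 and 82 of all 481 tested, and 2 of 6 did at week 104, against 104 of 481. miR-34b-5p in testis was at 9.95 ± 2.21 normalized CPM at week 2, 4392 ± 1290.5 at week 6, 6360 ± 651 at week 21 and 47.4 ± 62.0 at week 104, and in the adrenal gland at 4.07 to 5.54 on average at every age. Its organ difference exceeded that of week 2 by 8.82 (SE 0.88, edgeR adjusted p 6.25e-09) and 9.51 (SE 0.90) on the log2 scale at weeks 6 and 21. miR-449a-5p took the same course, with 137 ± 11.6 in testis at week 2 and 14519 ± 3078 at week 6 (7.85, SE 1.16).

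miR-202-5p had lower means in both organs after week 2, and the organ difference was larger at weeks 6 and 21. Changes with age within an organ were not tested by themselves. In testis it was at 14348 ± 1774, 7682 ± 1480.0, 6063 ± 818 and 7633 ± 813 normalized CPM at weeks 2, 6, 21 and 104, and in the adrenal gland at 128.7 ± 11.2, 10.8 ± 2.94, 9.10 ± 4.19 and 45.9 ± 53.8. The organ difference was larger by 2.66 on the log2 scale at week 6 (SE 0.60, edgeR adjusted p 0.000942) and by 2.53 at week 21 (SE 0.60, adjusted p 0.00105). At week 104 the libraries of the adrenal gland spread widely and the change of 0.57 was not called. 

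miR-375-3p differed between ages mainly in testis. Its testis level was 58.4 ± 15.1 at week 2, 2357 ± 290.4 at week 6, 2525 ± 462 at week 21 and 80.7 ± 31.9 at week 104, while the adrenal means lay between 4532 and 6843. The organ difference changed by 5.93 (SE 0.39) at week 6 and 5.45 at week 21. The difference of miR-7a-2-3p also moved toward the testis at week 6 (6.01), at low levels (5.12 ± 3.46 in testis against 8.91 ± 1.74 in the adrenal gland).

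The miR-183 cluster changed sides. All 3 members had a lower organ difference at weeks 6, 21 and 104 than at week 2, against 12.9, 26.6 and 18.7% of all tested. miR-182 in testis went from 1598 ± 524 at week 2 to 158 ± 35.2 at week 21 and 175 ± 61.3 at week 104, and in the adrenal gland from 63.2 ± 13.6 to 1427 ± 672 and 2528 ± 583. The change of the organ difference was -7.84 (SE 0.71, edgeR adjusted p 9.68e-10) at week 21 and -8.51 (SE 0.72) at week 104. miR-183-5p changed by -8.14 and -9.58 at these ages and miR-96-5p by -9.39 at week 104. In the epithelial group 1 of 7 was lower at week 6, near the 12.9% of all tested. Its difference shrank later, with 5 of 7 lower at week 21 and at week 104, against 26.6% and 18.7%.

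The Hox-embedded miR-196c-5p, higher in testis at week 2, was barely detected there at weeks 6 and 21. It was at 92.8 ± 8.36 in testis at week 2 and 0.638 ± 0.492 at week 6, while its means in the adrenal gland were 18.6 and 29.7 (change of the organ difference -7.67, SE 1.53, and -8.79, SE 1.52, at week 21). These changes rest on very few testis counts, so their size is uncertain. With 1 replicate number left out they ranged from -8.33 to -7.11 at week 6 and from -10.4 to -7.85 at week 21. Of the 8 tested Hox-embedded miRNAs, 5 had a lower organ difference than at week 2 at week 6, all 8 at week 21 and 3 at week 104, against 12.9, 26.6 and 18.7% of all tested, and at week 104 the difference was higher for 2, against 21.6%.

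The large groups on the adrenal side took different courses. At week 6 the Dlk1-Dio3 group was near the share of all tested miRNAs, with 9 of 73 lower (12.9% of all) and 1 higher. It parted further at later ages, with 45 of 73 tested lower at week 21 and 37 at week 104, against 26.6% and 18.7% of all tested, and its median organ difference went from -2.70 at week 2 to -4.59 at week 21. For miR-127-3p the testis mean was 7681 normalized CPM at week 2 and 2096 at week 21 (change of the organ difference -2.08, SE 0.37). The difference of the miR-322 and miR-503 group shrank instead, with 0 of 12 higher at week 6, 4 at week 21 and 10 at week 104, against 75, 82 and 104 of all 481 tested. miR-351-5p in the adrenal gland was at 56947 ± 6012 at week 2, 26321 ± 6353 at week 6, 16988 ± 5863 at week 21 and 7612 ± 705 at week 104, whereas its testis mean lay between 2292 and 5369.

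The X-linked testis cluster stayed on the testis side. Its median organ difference was 9.34 at week 2, 11.63 at week 6, 12.12 at week 21 and 8.38 at week 104. Of its 25 tested miRNAs, 4, 6 and 0 had a higher and 0, 0 and 3 a lower organ difference than at week 2 by this rule. Over all 481 tested these counts were 75, 82 and 104 higher and 62, 128 and 90 lower, so at week 6 the share of the cluster that was higher was close to that of all tested. miR-743b-3p went from 1694 ± 188.2 in testis at week 2 to 12776 ± 801 at week 6, whereas miR-3585-5p was at 8176 ± 593 and 10384 ± 1026. The change of the organ difference was 4.601 for miR-743b-3p (SE 1.25, edgeR adjusted p 0.00468) and -0.96 for miR-3585-5p (SE 0.54, not called).

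The testis libraries of week 104 differed among themselves more than those of other ages in the miRNAs named here: miR-34b-5p at 47.4 ± 62.0, miR-449a-5p at 154.5 ± 222.8 and miR-743b-3p at 741 ± 733 normalized CPM all had an SD near or above their mean. miR-6329 (change of the organ difference 5.29, SE 0.49) and miR-301b-3p (5.12, SE 0.69), both below 100 normalized CPM in every group, were among the largest changes at that age. For miR-301b-3p the adrenal mean was 22.7 at week 2 and 0.853 at week 104, and for miR-6329 the testis mean was 2.62 at week 2 and 85.9 ± 61.2 at week 104.

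**Figure D5:**
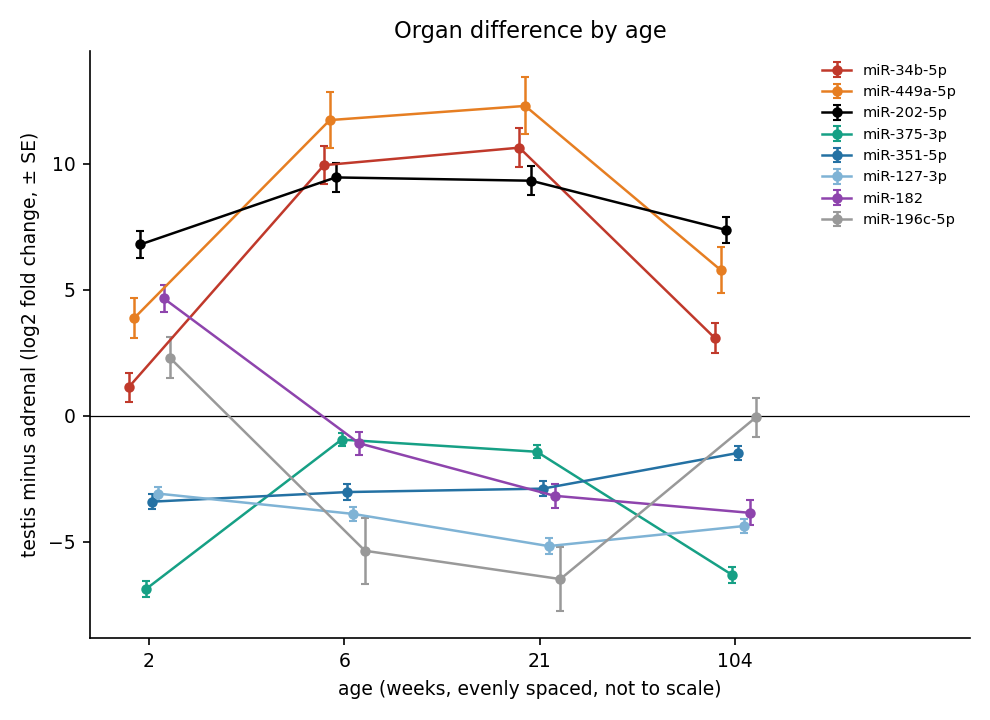
Log2 fold change between testis and adrenal gland (± SE of the fit, 4 libraries per organ and age) at 2, 6, 21 and 104 weeks, with ages evenly spaced and not to scale. The differences of miR-34b-5p and miR-449a-5p were larger at weeks 6 and 21 than at weeks 2 and 104, miR-182 crossed from the testis side to the adrenal side, and miR-351-5p and miR-127-3p stayed on the adrenal side.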

How the data were processed

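Small RNA libraries of rat organs were sequenced by the authors, who trimmed reads with fastp (version 0.23.2), kept those of miRNA length and aligned them with Bowtie (version 1.3.1) to miRBase. The authors deposited whole-number counts of 616 miRNAs, 12 of them their own candidates, after removing miRNAs with a mean under 1 count. How reads matching several miRNAs were assigned is not given in the sources used here. Counts of 4 testis and 4 adrenal libraries of males aged 2 weeks were scaled by TMM and tested with edgeR's quasi-likelihood test (version 4.0.16 in R 4.3.3; filterByExpr, Benjamini-Hochberg adjustment). Calls needed an adjusted p under 0.05 and at least 2-fold. DESeq2 (version 1.42.0) was an alternative. Separate fits covered 32 libraries of both organs at 4 ages and 40 male libraries of 10 organs. Arm ratios (0.5 counts added) and composition were compared by two-sided exact permutation tests. Scripts were tested on simulated data.

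Named miRNAs were the marker miR-202-5p, the 5 most abundant of each organ, the 10 largest called differences in each direction at 100 normalized CPM or more without overlap, the 5 smallest at 1000 or more, the most abundant of each group, the 3 largest arm differences and the 5 largest age interactions. Other miRNAs given with values, such as miR-31a-5p, miR-204-5p, miR-148a-3p, miR-181c-5p, miR-125b-5p and miR-195-5p, fell outside this rule and are picked examples. The groups and members were chosen with earlier results of these data known. By the study's methods the organs came from the same rats, but nothing in the labels or methods states that a replicate number marks 1 rat across organs. Same-numbered libraries correlated at 0.000446 to 0.169 in their deviations from the organ means, over 0.1 for 2 of 4 numbers, so libraries were not paired. The spread between libraries is that of separate animals. No 2 libraries agreed within sampling noise.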

Additional observations from a re-analysis of the deposited data

Results flagged for a closer look

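Among the named miRNAs and the measures of composition, 93 sets of 4 libraries were examined for a library that stood apart (a gap to its neighbour, relative to the range, beyond Dixon's 95% critical value). Chance marks about 1 in 20 such sets, and 13 were marked here. In testis these were miR-3585-5p (13630.1 normalized CPM in replicate 2), miR-201-5p (6465), miR-463-5p (1278) and miR-743b-3p (2953), the last 3 all in replicate 4, and miR-101a-3p, which was lowest in replicate 4 at 1295. In the adrenal gland miR-375-3p (9888) and miR-365-3p (521) were highest in replicate 1, miR-449a-5p (21.1) in replicate 3 and miR-6329 (17.6) in replicate 4, and replicate 4 had the most miRNAs with more than 3 counts (456). The remaining marks rest on 1 or 2 counts in 1 adrenal library: miR-871-5p (0.797), miR-743a-3p (0.399) and chrX_48878 (0.383).

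The organ difference (testis minus adrenal gland, log2) changed from week 2 most for the following miRNAs, each tested as an interaction with edgeR. At week 6 the changes were 8.82 for miR-34b-5p, 7.85 for miR-449a-5p, -7.67 for miR-196c-5p, 6.01 for miR-7a-2-3p and 5.93 for miR-375-3p. At week 21 they were 9.51 for miR-34b-5p, -8.79 for miR-196c-5p, 8.41 for miR-449a-5p, -8.14 for miR-183-5p and -7.84 for miR-182. At week 104 they were -9.58 for miR-183-5p, -9.39 for miR-96-5p, -8.51 for miR-182, 5.29 for miR-6329 and 5.12 for miR-301b-3p.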

How the results depend on the processing

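The counts of 143 higher and 137 lower miRNAs were recomputed under 10 other settings and with each library left out. A minimum mean count of 100 gave 85 and 73, and fewer miRNAs were tested; a 4-fold threshold gave 86 and 94. Library size alone gave 186 and 118, DESeq2 148 and 133, and lane as a covariate in 40 libraries 161 and 146. Leaving out 1 library gave 132 to 153 higher and 138 to 149 lower. Numbers above all other organs in both testis and adrenal gland were 1, but 2 with library size (miR-196c-3p added), 0 at 4-fold and 1 to 2 with 1 replicate number left out (miR-672-5p added without replicate 2). Those above in the adrenal gland fell from 9 to 2 at 4-fold (7 to 10 with a replicate left out), and those in testis were 39 to 41, or 32 with lane as a covariate. Interaction calls with a replicate number left out were 93 to 147 at week 6, 180 to 196 at week 21 and 141 to 176 at week 104. Over all settings run they ranged more widely, from 93 to 160, 178 to 226 and 141 to 263 at these ages. Seed calls were 115 to 122 higher and 112 to 119 lower with 1 library left out, 141 and 104 with library size alone, 104 and 115 with the seed taken as bases 2 to 7, and 118 and 124 with all miRNAs of the table included, a setting added after the data were seen.

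With the replicate number as a block, the calls were 144 and 137, seeds 116 and 116, interactions 143, 197 and 177, and organs 1, 40 and 9. Libraries were closest to their own number for 2 of 4. No arm of a hairpin was called at 200 counts or with 5 counts added; with 1 library left out the smallest exact p is 0.0571, so none could be. Of 100 single miRNAs examined, the 71 that were called kept their sign under every setting run, and 16 of the 29 not called changed sign under at least 1, such as miR-92a-3p (-0.42 to 0.45), miR-24-3p (-0.62 to 0.14) and miR-122-3p (-1.31 to 0.45). The median of the steroid-linked group also changed sign, to 0.35 with library size alone, as did those of the Hox-embedded group and the let-7 family at a mean count of at least 100, and, with some libraries left out, those of the kidney and gut group and of all tested miRNAs. Among single miRNAs, miR-122-5p, miR-223-3p and miR-10b-5p crossed the threshold most often, followed by miR-150-5p, miR-181a-5p and miR-214-3p. Depth limits miRNAs under about 1 normalized CPM, and lane 6 alone held both organs.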

Other observations

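Libraries of 1 organ differed most in a small set of miRNAs. Among the 168 miRNAs at a mean of at least 100 normalized CPM in testis, the median coefficient of variation over 4 libraries was 12.3%, and the highest were those of miR-871-3p (123%), miR-100-5p (87.2%) and miR-99b-5p (70.2%). All 3 were highest in testis replicate 1 and lowest in replicate 3. miR-100-5p was at 12909, 2931, 2708 and 3899 normalized CPM in testis and was called higher there with an edgeR adjusted p of 0.0433. miR-99b-5p was at 34840.4, 10395, 8420 and 15260 in testis and 55852, 32988, 19824 and 25822 in the adrenal gland, and miR-409a-5p at 124.7, 4.1995, 1.11 and 17.2 in testis and 576, 318, 120.8 and 302.2 in the adrenal gland. miR-99b-5p and miR-409a-5p were highest in replicate 1 of both organs. Testis replicates 2 and 3 were sequenced in lane 8, replicate 1 in lane 4 and replicate 4 in lane 6, and adrenal replicates 1 to 4 in lanes 6, 7, 7 and 3. The part of the lane in these values was not tested.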
